A study of Homo sapiens with 6 samples.

Results

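The 80 genes described here encode the proteins of the cytosolic ribosome, 49 of the large subunit (RPL genes with RPLP0, RPLP1 and RPLP2) and 31 of the small subunit (RPS genes with RPSA). They were chosen by symbol alone, from the 30051 genes of the count table, and pseudogenes, kinases named after RPS6 and mitochondrial ribosomal proteins were left out. RPS18 and RPL10L were not analysed here. A filter on low counts left 79 of the 80 to be tested, 48 of the large and 31 of the small subunit. The gene that did not pass was RPL3L, a relative of RPL3 known from striated muscle, with 3, 0 and 1 counts in DMSO and 13, 1 and 1 in panobinostat.

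The cells were MDA-MB-231, an established human line of triple-negative, claudin-low breast cancer. The control group received the solvent DMSO and the other panobinostat, which inhibits most histone deacetylases, at 50 nM for 24 h. Each group had 3 poly(A) RNA libraries, numbered 1, 2 and 3 in DMSO and 1, 2 and 4 in panobinostat, and the series' design text calls the repeats independent. All come from 1 line at 1 dose and 1 time.

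A ribosome joins a large subunit, which forms the peptide bond and holds the exit tunnel for the new protein, to a small subunit, which binds the messenger RNA and reads its codons. Each subunit needs its proteins in near-equal numbers, and surplus ribosomal protein is degraded. Messenger RNAs of these proteins are abundant and stable, and most start with a C followed by a run of pyrimidines, the 5′ terminal oligopyrimidine (TOP) motif, through which mTOR signalling and the RNA-binding protein LARP1 set their translation and stability.

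The annotated starts of several members show this motif and are printed because members with and without a change carry it, while RPS27L, the member that rose, does not. Each line gives 15 bases before and 15 from the annotated start on the coding strand, from RefSeq on GRCh38.p14. Capitals mark the longest run of pyrimidines (C or T) with a base within 10 bases of the start.
RPL13A, chr19:49487593-49487622, plus strand, lower in panobinostat: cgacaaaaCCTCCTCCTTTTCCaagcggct
RPL29, chr3:51995881-51995910, minus strand, lower: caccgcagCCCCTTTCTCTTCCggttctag
RPL41, chr12:56116618-56116647, plus strand, lower: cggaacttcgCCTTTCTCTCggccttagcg
RPS6, chr9:19380222-19380251, minus strand, lower: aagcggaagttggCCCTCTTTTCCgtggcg
RPLP2, chr11:809952-809981, plus strand, not called: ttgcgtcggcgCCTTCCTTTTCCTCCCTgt
RPL28, chr19:55385917-55385946, plus strand, not called: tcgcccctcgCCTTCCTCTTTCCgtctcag
RPS12, chr6:132814554-132814583, plus strand, not called: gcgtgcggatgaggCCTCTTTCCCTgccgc
RPS27, chr1:153990747-153990776, plus strand, not called: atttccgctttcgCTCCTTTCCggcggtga
RPS27L, chr15:63157463-63157492, minus strand, higher: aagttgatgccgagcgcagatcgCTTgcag
The run is 10 to 14 bases in the 4 printed members that fell, 9 to 17 in the 4 that were not called and 3 in RPS27L. Short runs also occur among members that fell, with 5 bases at both annotated starts of RPL6 and 2 at that of RPL27.

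The libraries held 5389638 to 15106148 counts. On the first principal component of log2 counts per 1000000 (CPM), which held 87.5% of the variance, panobinostat replicate 4 lay at 18.3, between the DMSO libraries (−49.1 to −47.6) and panobinostat replicates 1 and 2 (62.9 and 63.9), and counts and medians without it are given beside those of the groups. The 5 markers of the line summed to 6993 to 7094 CPM in DMSO and 6705 to 6773 CPM in panobinostat. The 8 markers expected to be weak in it, among them ESR1 and EPCAM, summed to 44.4 to 48.9 and 34.7 to 40.2 CPM. Markers of blood, vessel and stromal cells (8 of 10 with a row, 0 of them at 0 in all 6 libraries) summed to 24.4 to 26.6 CPM in DMSO and 64.8 to 99.1 CPM in panobinostat, with COL1A1, a collagen gene, at 75.7 ± 19.0 of these CPM (SD, n = 3). Their part in the results below was not tested.

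Ribosomal protein transcripts were a little lower in panobinostat, with a median difference of −12.7% over the 79 tested members (median log2 fold change −0.20, interquartile range −0.25 to −0.12). Log2 fold changes compare panobinostat with DMSO and are given as estimate ± SE with n = 3 per group, and CPM use TMM-adjusted totals. Of the 79, 51 fell, 1 rose and 27 were not called (edgeR quasi-likelihood test, Benjamini-Hochberg adjusted p under 0.05 over all 13341 tested genes). Thus 64.6% of the members were called lower and 1.27% higher, beside 28.6% lower, 30.2% higher and 58.9% called in either direction among all tested genes, whose median log2 fold change was 0.0028. The estimate was negative in 74 members and positive in 5. Without panobinostat replicate 4, 65 fell, 2 rose and the median was −0.25 (background 36.9% lower, 37.6% higher and 74.6% in either direction). In 58 members all 3 panobinostat libraries lay below all 3 DMSO libraries, against 34.0% of all tested genes. A fall of this size was not limited to ribosomal proteins: the 976 other genes of at least 200 CPM in DMSO, a level chosen after the values were seen, had the same median of −0.20, with 532 lower (54.5%) and 159 higher, and −0.25 without panobinostat replicate 4. Those genes spread more widely, with a interquartile range of −0.48 to 0.05, than the 69 members at that level, of which 48 were lower (69.6%), 0 were higher and the interquartile range ran from −0.25 to −0.14. In bulk RNA, less RNA of a kind per cell and fewer cells that make it cannot be told apart.

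**Figure D1:**
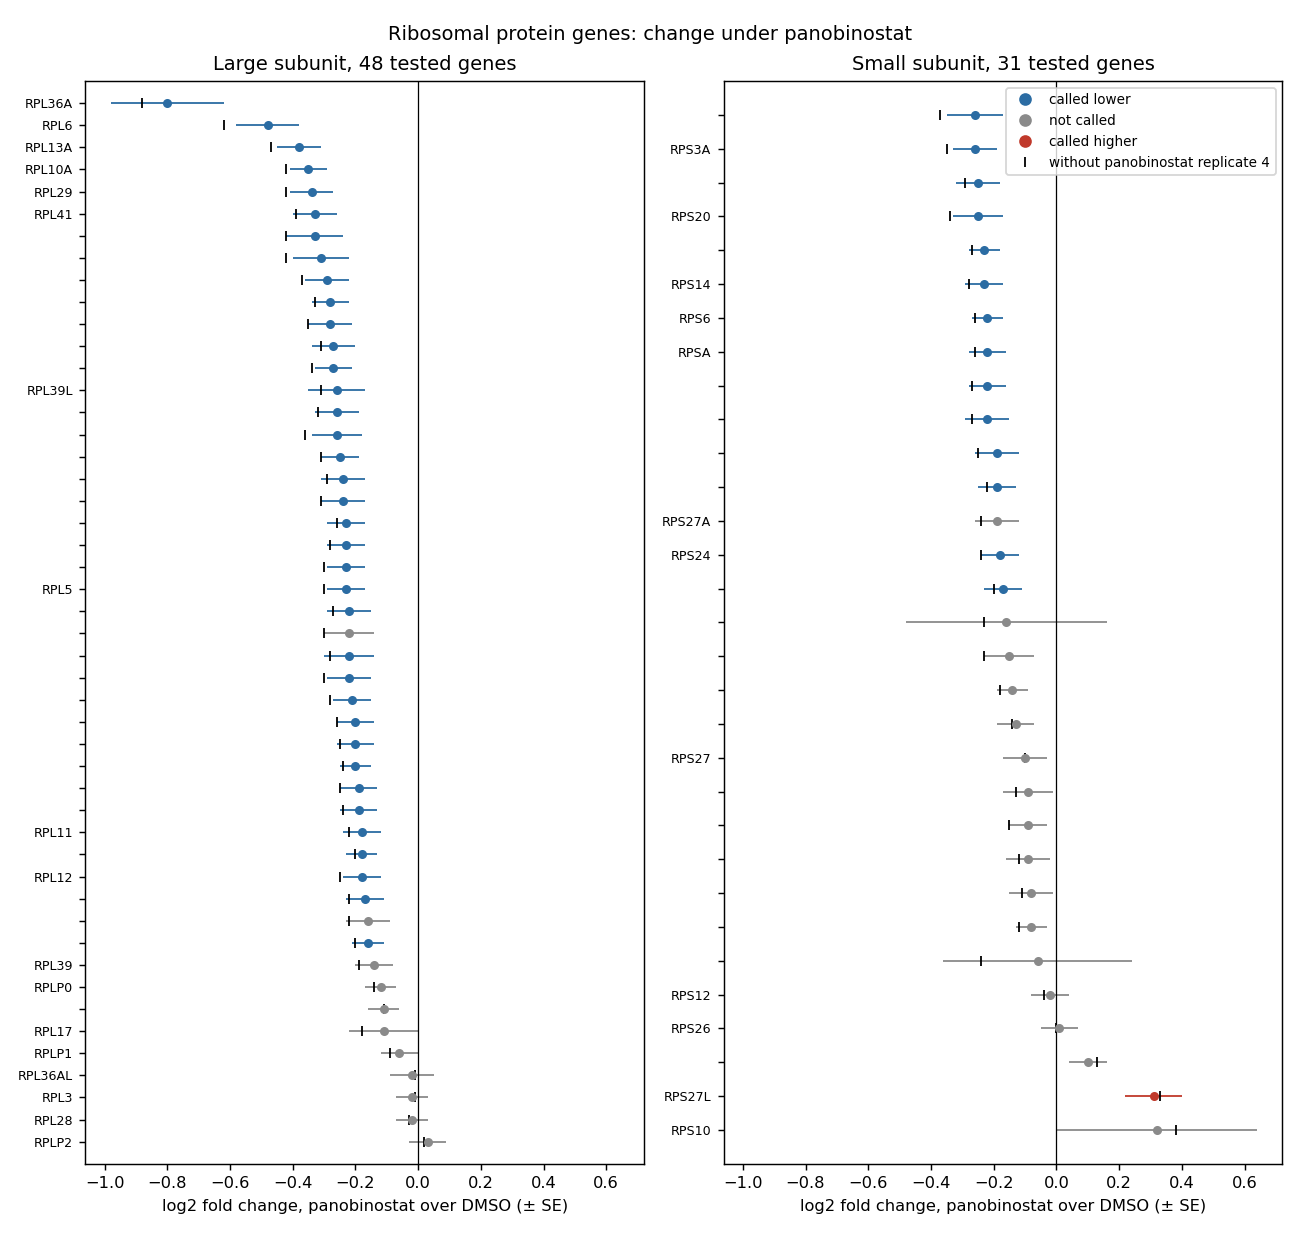
Log2 fold change (panobinostat over DMSO, horizontal axis) of each tested large and small subunit gene, with bars for its SE, coloured by call, with names for the genes described, and black ticks for the estimate without panobinostat replicate 4. Most points lie left of 0 in both panels, with RPL36A and RPL6 farthest to the left, and RPS27L is the called rise beside the low-counted RPS10, which was not called.

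More large than small subunit genes were called lower, a difference in counts that was not tested. Of the large subunit's 48 tested genes 37 fell (77.1%) and 11 were not called, with a median of −0.22 (−14.2%; interquartile range −0.27 to −0.18) and 47 negative estimates. None was called higher: edgeR called 0, also at an unadjusted p under 0.05, as did DESeq2 and limma-voom. In 42 of the 48 the panobinostat values were all below the DMSO values. Without panobinostat replicate 4, 43 fell and 0 rose and the median was −0.28. The count of falls was 22 without DMSO replicate 1, 15 without DMSO replicate 2, 16 without panobinostat replicate 1 and 20 without panobinostat replicate 2, where 19.9%, 21.0%, 19.5% and 20.7% of all tested genes were lower, while the median stayed between −0.28 and −0.19 without any 1 library.

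RPL6, a surface protein of the large subunit (chromosome 12, 112405181 to 112418835), had 1368, 1429 and 1418 CPM in DMSO and 906, 938 and 1174 CPM in panobinostat replicates 1, 2 and 4. All treated values were below all control values, and replicate 4 was the nearest to DMSO. RPL6 fell by 28.4% (log2 fold change −0.48 ± 0.10, edgeR adjusted p = 0.00440, and −0.62 without panobinostat replicate 4). RPL13A (chromosome 19, 49487608 to 49492308), also known as the mediator of a translational silencing complex in myeloid cells, had 1218, 1203 and 1172 CPM in DMSO and 873, 865 and 1032 CPM in panobinostat. The groups did not overlap, and the change was −0.38 ± 0.07 (edgeR adjusted p = 0.00446). RPL10A, part of the L1 stalk that guides spent transfer RNA out of the ribosome (chromosome 6, 35468401 to 35470780), had 709, 712 and 705 CPM in DMSO against 533, 533 and 598 CPM. Its DMSO values were close together and all above the treated ones (−0.35 ± 0.06, edgeR adjusted p = 0.00288). RPL29, a heparin-binding protein at the subunit surface named after its values were seen, had 566, 596 and 598 CPM in DMSO and 438, 442 and 507 CPM in panobinostat (−0.34 ± 0.07, edgeR adjusted p = 0.00498). RPL41 encodes a peptide of few residues at the bridge between the subunits and had 441, 468 and 440.3 CPM in DMSO and 334, 358 and 379.6 CPM in panobinostat, again without overlap (−0.33 ± 0.07, edgeR adjusted p = 0.00431). The calls of RPL6, RPL13A, RPL10A, RPL29 and RPL41 were kept in all 14 alternative analyses.

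RPL5 and RPL11 bind 5S ribosomal RNA and, when free of ribosomes, the p53 ligase MDM2. RPL5 had 1146, 1132 and 1080.1 CPM in DMSO and 933, 901 and 1022 CPM in panobinostat, and RPL11 had 513, 482 and 458 CPM against 425, 414 and 443 CPM. Both fell without overlap of the groups, RPL5 by 14.9% (−0.23 ± 0.06, edgeR adjusted p = 0.0126) and RPL11 by 11.8% (−0.18 ± 0.06, edgeR adjusted p = 0.0355). The call of RPL5 was lost without DMSO replicate 1 or DMSO replicate 2 and that of RPL11 without any of DMSO replicates 1 and 2 and panobinostat replicates 1 and 2, with adjusted p up to 0.0533 and 0.131 over their alternatives. Scaling by library size alone also ended the call of RPL11 (−0.15, edgeR adjusted p = 0.0582). Of the 8 proteins that line the tunnel exit, where nascent chains meet their targeting factors, 5 fell and 3 were not called, with a median of −0.21 (7 falls and −0.27 without panobinostat replicate 4). Of 18 large subunit genes whose proteins have bacterial counterparts 13 fell and 5 were not called, with a median of −0.23 (16 falls and −0.30 without it).

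Genes of the P stalk, the flexible arm that recruits elongation factors, had small estimates. RPLP0, its base, had 2308, 2249 and 2156 CPM in DMSO and 2075, 2028 and 2075 CPM in panobinostat. The groups were apart, yet the change of −0.12 ± 0.05 was not called (edgeR adjusted p = 0.0575). With panobinostat replicate 4 left out it was called lower (−0.14, edgeR adjusted p = 0.000651). RPLP1, which forms dimers with RPLP2 on that base, had 482, 483 and 439 CPM against 439, 447 and 461 CPM, with overlap (−0.06 ± 0.06, edgeR adjusted p = 0.422). RPLP2 had 397, 403 and 385 CPM in DMSO and 390.3, 423 and 398 CPM in panobinostat, overlapping throughout, with a difference of 0.03 ± 0.06 and an interval of 2 SE from −0.08 to 0.14. RPL12, at the stalk base, fell (−0.18 ± 0.06, edgeR adjusted p = 0.0292), but the call was lost without any 1 library other than panobinostat replicate 4. Of the 4 stalk genes 1 thus fell and 3 were not called, and 3 fell without panobinostat replicate 4. That the stalk differed from the other members was not tested.

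Apart from the stalk, the most level large subunit genes were RPL3, RPL28 and RPL36AL. RPL3, a core protein next to the peptidyl transferase centre (chromosome 22, 39312882 to 39319623), had 1156, 1151 and 1144 CPM in DMSO and 1159, 1137 and 1102 CPM in panobinostat. These values overlapped and differed by −0.02 ± 0.05 (interval −0.12 to 0.07). RPL28, a protein without a bacterial counterpart (chromosome 19, 55385932 to 55403342; named after its values were seen), had 541, 545 and 523 CPM against 532, 530.2 and 522 CPM, and differed by −0.02 ± 0.05 (interval −0.12 to 0.08). Both intervals leave out the median fall of the subunit, and with library size only as the scaling both estimates were 0.01.

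The small subunit had fewer calls. Of its 31 genes 14 fell (45.2%), 1 rose and 16 were not called, with a median of −0.16 (−10.3%; interquartile range −0.22 to −0.08), 27 negative estimates and 16 genes with all panobinostat values below all DMSO values. Without panobinostat replicate 4, 22 fell and 2 rose and the median was −0.23. The count of falls was 4 without DMSO replicate 1, 7 without DMSO replicate 2, 7 without panobinostat replicate 1 and 4 without panobinostat replicate 2. The 2 counts of 4 are a smaller share than the 19.9% and 20.7% of all genes, and the 2 counts of 7 are close to the 21.0% and 19.5%. At 50 CPM or more in DMSO, a level also chosen after the values were seen, 14 of 27 small subunit genes fell with a median of −0.18, beside 35 of 45 large subunit genes with a median of −0.22.

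RPS3A, a protein near the mRNA exit, had 696, 705 and 689 CPM in DMSO and 553, 548 and 638 CPM in panobinostat. The groups did not overlap (−0.26 ± 0.07, edgeR adjusted p = 0.0121), and the call was kept in all 14 alternatives. RPS6, the substrate of S6 kinase whose phosphorylation is read as a sign of mTOR activity, had 817, 809 and 779.7 CPM against 662, 686 and 715 CPM, also apart (−0.22 ± 0.05, edgeR adjusted p = 0.00880) and kept in all 14. RPSA, which doubles as a laminin receptor, had 979, 905 and 892 CPM in DMSO and 809, 751 and 828 CPM in panobinostat (−0.22 ± 0.06, edgeR adjusted p = 0.0171). RPS20, of the head, had 374, 339.6 and 343 CPM against 280.3, 282 and 323 CPM (−0.25 ± 0.08, edgeR adjusted p = 0.0208). RPSA and RPS20 did not overlap between groups, but each lost its call without DMSO replicate 1 or panobinostat replicate 2, and RPS20 also without panobinostat replicate 1, with adjusted p up to 0.0713 and 0.0859. RPS27A, made as a fusion with ubiquitin, had 643, 583 and 539.6 CPM in DMSO and 503, 503 and 540 CPM in panobinostat. These touched at 540 and the change of −0.19 ± 0.07 was not called (edgeR adjusted p = 0.0545), though it was without panobinostat replicate 4 (edgeR adjusted p = 0.00191).

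Within the small subunit, 10 of 17 genes of the body fell and 7 were not called (median −0.19), and 4 of 13 genes of the head fell and 9 were not called (median −0.09). Without panobinostat replicate 4 the body had 14 falls and a median of −0.25, and the head 8 falls, 1 rise and a median of −0.18. RPS12 (−0.02 ± 0.06, interval −0.15 to 0.10) and RPS26 (0.01 ± 0.06, interval −0.11 to 0.13), both named after their values were seen, overlapped between groups. RPS26 had 162, 166 and 158 CPM against 159, 169.8 and 161 CPM. Of 14 small subunit genes with bacterial counterparts 9 fell and 5 were not called, with a median of −0.19 (11 falls, 1 rise and −0.24 without panobinostat replicate 4).

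Summed over genes, the large subunit took 2.97%, 2.99% and 2.91% of all counts in DMSO and 2.53%, 2.54% and 2.74% in panobinostat replicates 1, 2 and 4. The small subunit took 1.52%, 1.5% and 1.45% against 1.33%, 1.33% and 1.41%. In both subunits each treated library lay below each control library, and replicate 4 was nearest to DMSO. The means went from 2.96% ± 0.0416 to 2.60% ± 0.118 for the large and from 1.49% ± 0.0361 to 1.36% ± 0.0462 for the small subunit (SD, n = 3). Large subunit counts were 1.95, 2.0 and 2.01 times small subunit counts in DMSO and 1.91, 1.91 and 1.95 times in panobinostat. DMSO replicate 1 and panobinostat replicate 4 were equal at 1.95 as rounded. Before rounding, the panobinostat ratio was slightly the lower. The mean log2 CPM of the 45 large subunit genes exceeded that of the 27 small subunit genes, all at 50 CPM or more, by 0.209, 0.243 and 0.255 in DMSO and by 0.157, 0.163 and 0.200 in panobinostat. These differences did not overlap, but DMSO replicate 1 and panobinostat replicate 4 were 0.209 and 0.200, close beside the SD of 0.0239 and 0.0233 in the groups. The mean excess of the large subunit was 0.236 in DMSO and 0.173 in panobinostat on the log2 scale, a score over the members for which no p is given. By library, the median log2 difference from the DMSO mean at this level was −0.26, −0.24 and −0.13 for the large and −0.20, −0.22 and −0.11 for the small subunit in panobinostat replicates 1, 2 and 4.

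**Figure D2:**
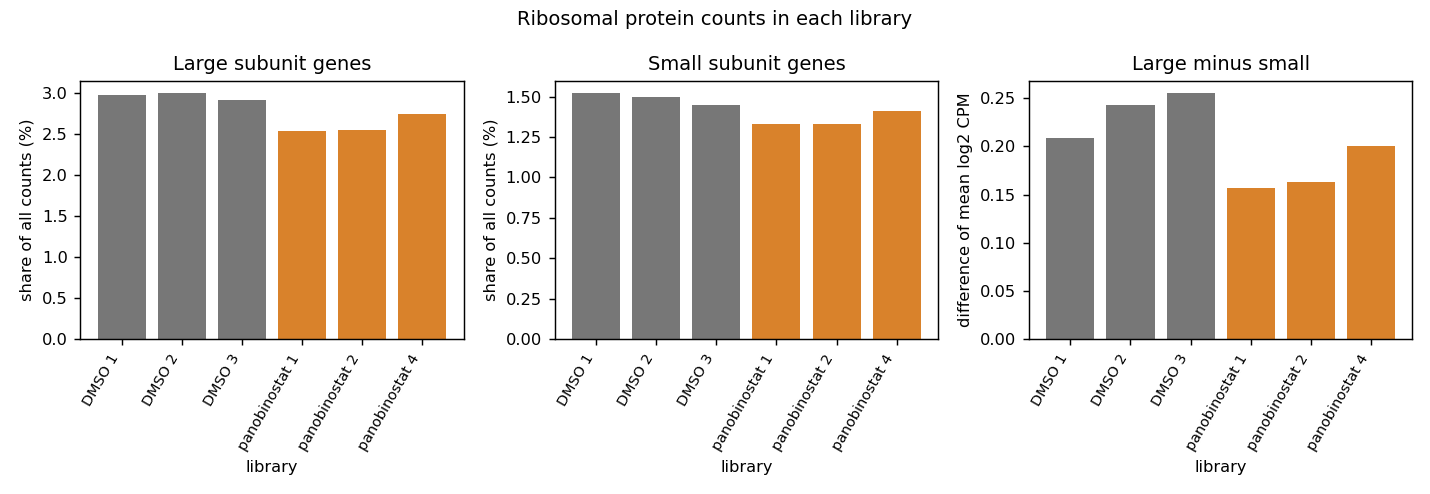
Share of all counts (%) taken by large and by small subunit genes, and mean log2 CPM of large minus small subunit genes, in each library; bars start at 0. The panobinostat libraries (orange) stand below the DMSO libraries (grey) in all 3 panels, with panobinostat replicate 4 nearest to DMSO.

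**Figure D3:**
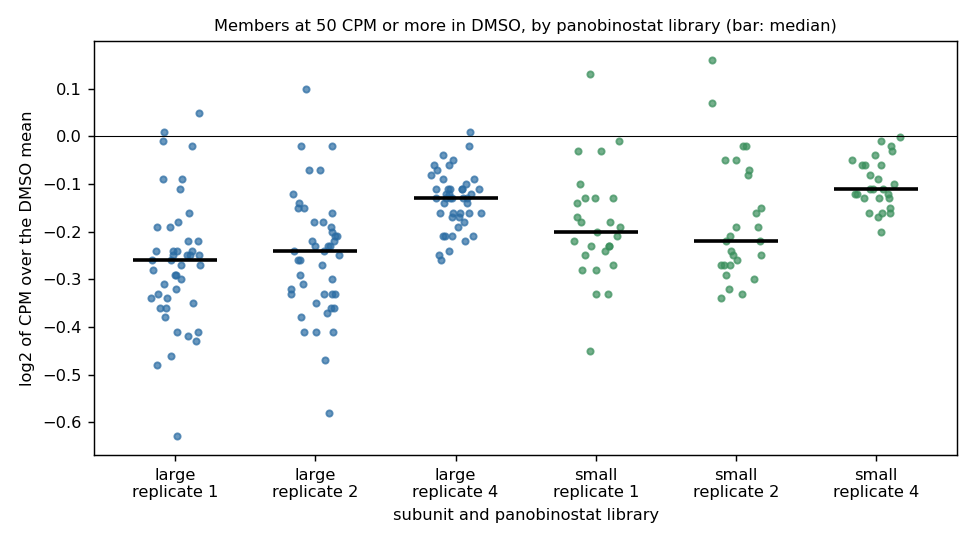
Log2 of CPM over the DMSO mean for members of at least 50 CPM, 1 point per gene and black bars for medians, by subunit and panobinostat library. Medians are −0.26, −0.24 and −0.13 for the large and −0.20, −0.22 and −0.11 for the small subunit.

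RPS27L stood against the other members. It encodes a close relative of RPS27 that is known as a p53 target, and lies on chromosome 15 from 63148249 to 63157477. It had 49.2, 45.7 and 42.7 CPM in DMSO and 58.2, 59.4 and 53.4 CPM in panobinostat, with every treated library above every control. It rose by 24.0% (0.31 ± 0.09, edgeR adjusted p = 0.0179, and 4.02e-05 to 0.0925 over its alternatives). The call was lost with no filter, with the DESeq2 Wald test, and without DMSO replicate 2, DMSO replicate 3, panobinostat replicate 1 or panobinostat replicate 2, at changes of 0.24 to 0.30. RPS27 itself (chromosome 1, 153990762 to 153992155) had 338, 295 and 307 CPM against 312, 275 and 292 CPM, overlapping and not called (−0.10 ± 0.07, edgeR adjusted p = 0.291). Counts of RPS27L were therefore 14.6%, 15.5% and 13.9% of those of RPS27 in DMSO and 18.7%, 21.6% and 18.3% in panobinostat, 14.6% ± 0.791 and 19.5% ± 1.78 as means (SD, n = 3), with no overlap. The annotated start of RPS27L lacks the TOP run that RPS27 has.

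The share of the copy was also higher without overlap for RPL36AL to RPL36A (2461% ± 492 in DMSO and 4186% ± 544 in panobinostat, SD, n = 3), where the copy was not called and RPL36A fell, and for RPL26L1 to RPL26 (46.3% ± 2.29 and 53.2% ± 1.18). It was lower without overlap for RPL22L1 to RPL22 (26.8% ± 1.74 and 24.5% ± 0.506) and for RPL7L1 to RPL7 (142% ± 10.2 and 95.4% ± 25.1). Among all tested genes, 69.0% did not overlap between groups in CPM, in either direction. RPL39L, a copy of the exit tunnel protein RPL39 known from the male germline and tumours, had 41.1, 37.6 and 38.2 CPM in DMSO and 31.0, 33.5 and 33.3 CPM in panobinostat. It fell (−0.26 ± 0.09, edgeR adjusted p = 0.0335), but the call was lost with DESeq2 and without any 1 library other than panobinostat replicate 4 (adjusted p up to 0.130). RPL39 had 358, 353 and 352 CPM against 317, 309 and 339.6 CPM, apart between groups but not called (−0.14 ± 0.06, edgeR adjusted p = 0.0697). The share of RPL39L to RPL39 counts overlapped, at 11% ± 0.442 and 10.1% ± 0.607. RPL36AL, a copy of RPL36A that held more counts than it in every library, had 325, 294 and 294 CPM in DMSO and 316, 290.4 and 294 CPM in panobinostat (−0.02 ± 0.07, interval −0.15 to 0.11). RPL36A had 11.1, 15.2 and 11.6 CPM against 6.88, 6.60 and 8.25 CPM, without overlap, and fell by 42.5% (−0.80 ± 0.18, edgeR adjusted p = 0.00626). Reads of near-identical copies can be split or lost in counting, so the values of these pairs are uncertain. Of 3 relatives outside the members, RPL7L1, a protein of ribosome assembly, was lower, at 912 ± 32.8 CPM in DMSO and 512 ± 157 CPM in panobinostat (−0.83 ± 0.18, edgeR adjusted p = 0.00596). RPL22L1 also fell (−0.39 ± 0.10, edgeR adjusted p = 0.0104), while RPL26L1 was not called (−0.13 ± 0.11). RPL7L1 lost its call with no filter (adjusted p = 0.0524).

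**Figure D4:**
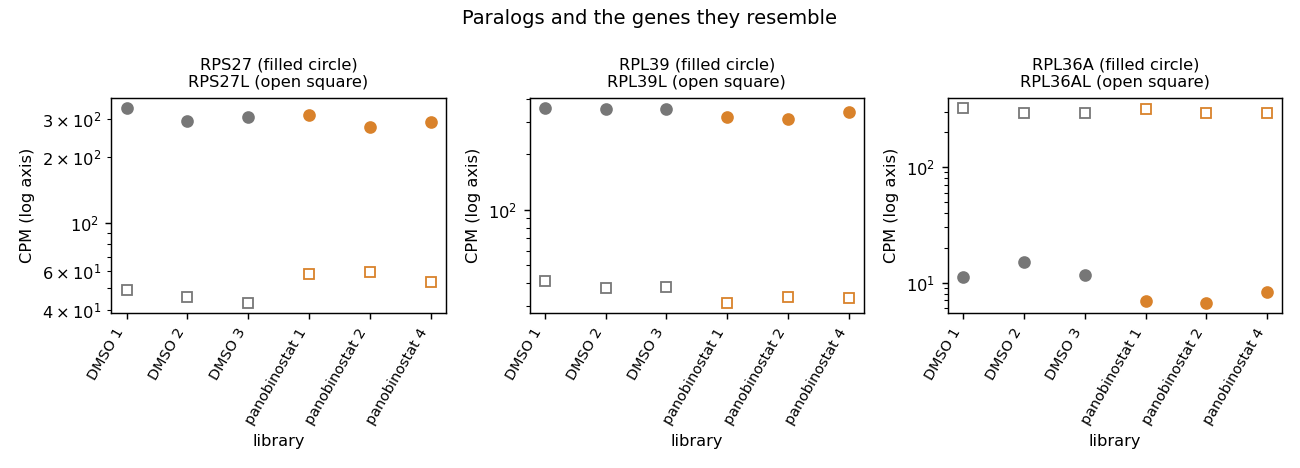
CPM (log axis) of RPS27, RPL39 and RPL36A (filled circles) and of RPS27L, RPL39L and RPL36AL (open squares) in each library. The squares of RPS27L lie higher in panobinostat, those of RPL39L lower and those of RPL36AL at the same level, while the circles of RPL36A drop.

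Levels among members span a wide range even per length. Per 1000 bases of coding sequence (GENCODE 29, without UTRs), RPL41 had 5994 CPM in DMSO, followed in the large subunit by RPLP0 at 2353, and the small subunit was led by RPS24 at 2038 and RPS14 at 1578 CPM. RPS24 (−0.18 ± 0.06, edgeR adjusted p = 0.0269) and RPS14 (−0.23 ± 0.06, edgeR adjusted p = 0.0118) fell, but RPS14 lost its call without DMSO replicate 1 (adjusted p = 0.0531) and RPS24 without any 1 library other than panobinostat replicate 4 (adjusted p up to 0.103). RPL36A and RPL17, both at 39.8 CPM per 1000 coding bases, were lowest among the tested large subunit genes, and RPS10 at 5.05 was lowest in the small subunit. In all, 10 members were under 110 CPM, and 7 of these 10 are among the 13 members that another GENCODE 29 gene overlaps on the same strand, such as the read-through genes RPS10-NUDT3, RPL17-C18orf32 and RPL36A-HNRNPH2. Whether counting dropped such reads was not tested. RPS10 had 19, 23 and 17 counts in DMSO and 41, 22 and 17 in panobinostat (0.32 ± 0.32). Its groups overlapped, and its SE was as large as the estimate. RPL17, with 262, 151 and 145 counts against 280, 122 and 141, was not called either (−0.11 ± 0.11, edgeR adjusted p = 0.438). The 613 rows of ribosomal protein pseudogenes held 0.137% to 0.143% of counts in DMSO and 0.125% to 0.130% in panobinostat, beside 4.36% to 4.49% and 3.86% to 4.14% in the members.

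Among the 72 members of at least 50 CPM the size of the change was set beside level and length. Across these genes, which are not independent replicates and come from the same 6 libraries, log2 fold change had a Pearson r of −0.10 (Spearman rho −0.04) with log2 CPM per coding length and −0.13 (rho −0.22) with coding length. With coding length it was −0.04 (rho −0.12) in the 45 large and −0.31 (rho −0.43) in the 27 small subunit genes, and with log2 CPM −0.02 (rho −0.03) and −0.38 (rho −0.38). The difference between the subunits was not tested.

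Promoter sequence was available for 63 of the 80 members, from 250 bases before to 50 after the annotated start. A C at the start with 5 or more pyrimidines in a row was found in 45 of the 63 (71.4%; 28 of 39 large, 17 of 24 small), against 5.14% of 27305 genes. Of these 45, 31 fell and 14 were not called, with a median of −0.19, and of the other 18, 10 fell, 1 rose and 7 were not called, with a median of −0.19 as well. Without panobinostat replicate 4 the medians were −0.25 and −0.22. In the 300 bases, on either strand, CCGGAA, a core of ETS factor sites, stood in 55.6% of the members and 20.1% of all genes, and ATGGCG, a core of YY1 sites, in 39.7% and 12.7%. GGGCGG, a core of SP1 sites, stood in 60.3% and 48.3%, CACGTG, the E-box of MYC, in 6.35% and 8.77%, and TATAAA in 7.94% and 14%. A match is a description of the letters only.

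The authors' deposited table gives its own comparison of these genes. It called, per the authors' deposited table, 50 of the 80 members lower and 1 higher at an adjusted p under 0.05 (background 20.1% lower and 20.7% higher), 38 of 49 large and 12 of 31 small, with medians of −0.19 and −0.14. The gene called higher in the authors' deposited table was RPS27L (0.27, SE 0.11, adjusted p = 0.0338), and RPL6 had −0.42 (SE 0.10, adjusted p = 0.000403).

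Genes that build and serve the ribosome were described from lists chosen with earlier results known, and are read against the backgrounds of 28.6% lower and 30.2% higher. Counts without panobinostat replicate 4 are read against 36.9% lower and 37.6% higher. RACK1, a scaffold on the small subunit head, fell (−0.23 ± 0.05, edgeR adjusted p = 0.00729), and FAU, made as a fusion with a ubiquitin-like protein, was not called (−0.03 ± 0.06). Of 18 other TOP genes tested, 8 fell, 1 rose and 9 were not called (median −0.13), and without panobinostat replicate 4, 12 fell, 1 rose and the median was −0.27. LARP1, which binds the TOP motif, was at 503 ± 11.4 CPM in DMSO and 235 ± 98.2 CPM in panobinostat (−1.10 ± 0.24, edgeR adjusted p = 0.00617), and was not called with no filter (adjusted p = 0.0904). Of 29 initiation, elongation and release genes 17 fell, 4 rose and 8 were not called (median −0.24), and 18 fell and 5 rose without it (median −0.27). ABCE1, which splits ribosomes for reuse, fell (−0.88 ± 0.17), and EIF4EBP2, a repressor of cap-dependent initiation, rose (0.73 ± 0.10).

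Of 45 genes for assembly of the large subunit, 20 fell, 7 rose and 18 were not called (median −0.22; without panobinostat replicate 4, 28 fell and 11 rose, median −0.29), with GNL3L, a nucleolar GTPase, falling (−0.87 ± 0.15) and NOC2L rising (0.31 ± 0.07). Of 49 for the small subunit 21 fell, 8 rose and 20 were not called (median −0.10; 25 fell and 14 rose without it, median −0.20), with UTP20, of the processome, falling (−1.11 ± 0.27) and RRP9 rising (0.58 ± 0.10). Import factors and dedicated chaperones of ribosomal proteins gave 8 falls, 1 rise and 6 not called of 15 (median −0.32; 14 falls and 1 rise without it, median −0.44), among them KPNB1, importin beta (−1.24 ± 0.27, lower). UTP20 and KPNB1 were not called with no filter (adjusted p = 0.118 and 0.0878). Of 13 snoRNP genes 5 fell, 1 rose and 7 were not called (7 fell and 3 rose without it), and GAR1 fell (−0.87 ± 0.15). Of 18 RNA polymerase I genes tested 3 fell, 4 rose and 11 were not called (7 fell and 7 rose without panobinostat replicate 4), and UBTF, its activator, was lower, at 189 ± 5.78 CPM in DMSO and 72.1 ± 41.7 CPM in panobinostat (−1.41 ± 0.33, edgeR adjusted p = 0.00776), a call lost with no filter (adjusted p = 0.107). Of 24 regulators of ribosomal protein genes 12 fell, 7 rose and 5 were not called (13 fell and 9 rose without it). GABPB1, a subunit of an ETS-type factor, fell (−0.90 ± 0.16), and TBPL1, a TBP relative (1.39 ± 0.16), and MYC (0.51 ± 0.08; named after its values were seen) rose. Of 12 host genes of snoRNAs, many of them TOP genes, 9 fell and 3 were not called (median −0.44; 11 falls and a median of −0.53 without panobinostat replicate 4).

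**Figure D5:**
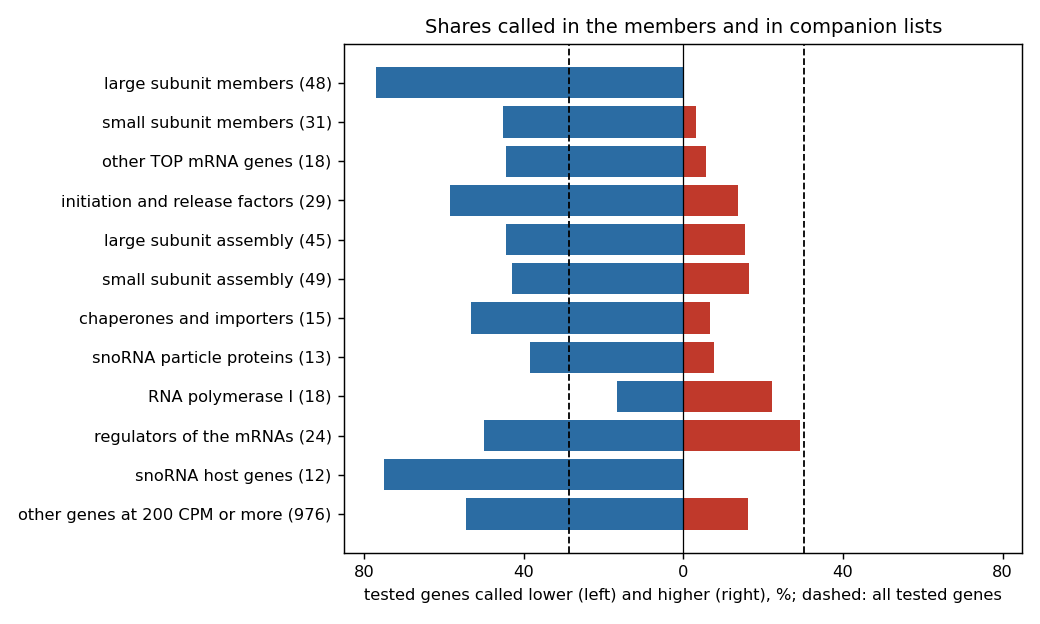
Share (%) of the tested genes of each list called lower (blue, to the left) or higher (red, to the right) in panobinostat by edgeR, with the number tested in brackets and dashed lines for all tested genes. The large subunit reaches 77.1% lower and the small subunit 45.2%, beside 28.6% of all tested genes and 54.5% of other genes at 200 CPM or more.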

How the data were processed

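Poly(A) RNA of 6 libraries was sequenced on an Illumina HiSeq with a stranded kit, per the labels' protocols. The authors deposited raw gene counts, which the table's name ties to featureCounts, with their own comparison. The deposited comparison holds a mean normalised signal, log2 fold changes, a score and p-values. Build GRCh38.p14 and FastQC stand in the submitters' processing notes. Not given in the sources used here were aligner, annotation, strand setting and comparison tool. Counts and comparison were matched by gene identifier, since their lines differ and 148 comparison lines repeat one. The deposited sum column exceeds the 6 libraries by 23441472 counts (30.8%) and was not used.

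Counts were tested with edgeR 4.0.16 (quasi-likelihood, robust, TMM, filterByExpr, treatment only; R 4.3.3). A check on simulated data used larger changes than that of any tested member and equal variation for all genes and libraries. It therefore cannot show how well changes of the members' size are called. Variation between replicates (BCV) was 0.112 with all libraries, or 0.0283 when panobinostat replicate 4 was left out. Chi-square per gene between replicates was at least 1.23, so none had the same counts as another. This value cannot tell repeats of the same culture from independent ones. Alternatives used DESeq2 1.42.0, limma 3.58.1, other scalings, no filter, a replicate block and each library left out. P-values measure the spread between these 6 libraries. Members and lists were chosen with earlier results of these data known. Named genes are, per subunit, the 4 largest called changes each way, those against the majority, a fixed set (RPLP0, RPLP1, RPLP2, RPSA, RPL5, RPL11, RPS6, RPS27A, RPL41), L-suffix copies with their counterparts, the 2 highest and lowest per length, and up to 2 per direction of each companion list. A few of these are left out of the text but remain within every list count. An exact test of 3 against 3 libraries cannot go below 0.1 and was not used.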

Additional observations from a re-analysis of the deposited data

How the results depend on the processing

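Called falls ranged from 15 to 43 in the large and 4 to 22 in the small subunit, and called rises in the small subunit from 0 to 2, when 1 library was left out. Of the 52 called members, 35 lost the call without at least 1 single library (23 large, 12 small, 0 of them without panobinostat replicate 4), among them RPL5, RPL11, RPS20 and RPS27L, and 17 kept it in all 14 alternatives. Calls also varied over all tested genes, with 2624 to 5079 lower when 1 library was left out, against 3821 with all 6. How many of all called genes lost their call was not counted. The small subunit median of −0.16 was −0.22 with no filter and −0.23 to −0.13 with 1 library left out. With no filter the median of all tested genes was −0.05, against 0.0028 in the main fit. Called rises in the small subunit were 0 with no filter, 0 with the DESeq2 Wald test and 2 with library quality weights. Medians of the large and small subunit were −0.23 and −0.16 with DESeq2 size factors, −0.21 and −0.14 with upper-quartile factors, −0.19 and −0.13 with library size only, and −0.22 and −0.16 with scaling factors made without ribosomal protein genes. The medians of all tested genes were, in the same order, −0.003, 0.02, 0.03 and −0.0001. Changes of sign were limited to named genes that were not called: RPL28 (0.01), RPL3 (0.01), RPL36AL (0.01) and RPS12 (0.004) with library size only, RPLP2 (−0.02) and RPS26 (−0.05) with no filter, RPS26 (−0.02) with the DESeq2 Wald test, and, without 1 library, in ranges that span 0, RPL36AL (−0.06 to 0.02), RPLP2 (−0.01 to 0.05) and RPS26 (−0.03 to 0.02). The causes were not tested.

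Replicate numbers 1 and 2 occur in both groups, but no label pairs the libraries. Deviations from the group means had correlations of 0.0514 and 0.00807 for equal numbers, and −0.0628 to 0.033 for unequal numbers. The panobinostat means include replicate 4, which lay apart from the other libraries, so these correlations cannot decide whether the libraries pair. A fit that takes the replicate number as a block rests on replicates 1 and 2 alone, and falls numbered 43 in the large (median −0.27) and 26 in the small subunit, rises there 2, and the small subunit median was −0.24, while RPS26 had −0.01. Over all 13341 tested genes, the block fit called 4950 lower and 5030 higher, against 3821 and 4032 in the main fit. Counts of 17 to 41 per library in RPS10 limit the precision of its change.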
